A study of Nicotiana tabacum with 6 samples.

Results

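The genes described here are 5 tobacco loci of the mevalonate pathway and of sterol demethylation, among 68476 loci in the deposited table. They were chosen by gene number, given here as in the table: HMGR2 (ncbi_107777769) and HMGR1 (ncbi_107832729), for 3-hydroxy-3-methylglutaryl-CoA reductase, AACT2 (ncbi_107809709), a symbol used for acetoacetyl-CoA thiolase, and CYP51 (ncbi_107764727) and NtCYP51-2 (ncbi_107779000), for the sterol demethylase that acts on obtusifoliol in plants. The RefSeq gene table carried all 5 of these names, and all 5 genes passed the filter on low values. Poly(A) RNA from mature leaves of Nicotiana tabacum was sequenced in 6 libraries, 3 labelled OE-NtispH, for plants overexpressing NtispH, and 3 labelled WT, for wild-type plants. The labels give no cultivar, plant age, promoter of the transgene or number of transgenic lines, and none says that replicates are different plants. The p-values therefore refer to the scatter among these libraries, which may be technical.

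Plants make the precursors of isoprenoids by separate routes, the mevalonate pathway in the cytosol and the MEP pathway in the plastid, and NtispH encodes the last enzyme of the MEP pathway. Acetoacetyl-CoA thiolase opens the mevalonate pathway, and HMG-CoA reductase makes mevalonate and is widely regarded as its main control point. The products feed sterols, and in the tobacco family also the sesquiterpene defence compounds. In potato and tomato, separate HMGR genes are known to respond differently to wounding and to elicitors of defence. CYP51 removes a methyl group from a sterol precursor and is a housekeeping step of membrane sterol synthesis.

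The locus named ISPH, taken by its name as the overexpressed gene, did not follow the labels. Whether it is the copy used for the transgene, or receives the transgene's fragments, was not tested. ISPH (LOC107760258) stood at 2761, 684.6 and 853.7 FPKM in the libraries labelled OE-NtispH (replicates 1 to 3), against 108.2, 3038 and 558.6 FPKM in those labelled WT. The highest value stood in a library labelled WT, so this locus does not check the labels, and whether any library carries the wrong label was not tested. Every direction below is therefore between libraries as labelled. Each library summed to between 747832 and 770304 FPKM. Read counts are not known. Judged by the commonest ratio of low values, the remaining 5 libraries were 1.02 to 1.17 times as deep as WT replicate 1, with 7.78% to 10.3% of low loci at that ratio. All 6 matched leaf mesophyll markers had a lower mean in the libraries labelled OE-NtispH, and their summed level was 4967 to 6836 FPKM there, against 8546 to 9821 FPKM in the libraries labelled WT. Of 8 matched root markers 6 were listed at 0 in every library, among them 4 PMT loci, A622 and MPO1, and the remaining 2 were BBLa, below 1 FPKM, and qpt2, at 16.5 to 37.6 FPKM. The 1 matched glandular trichome marker, NtABS, stood at 9.97 to 11.9 FPKM in OE-NtispH and 9.24 to 11.4 FPKM in WT.

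Within this set the HMGR genes varied widely between libraries and the sterol demethylase genes hardly at all. The genes and this contrast were chosen with earlier results of these data known, so the contrast is a description and not a test. HMGR2 was lower in every library labelled OE-NtispH than in any labelled WT, and none of the 5 genes passed the test. Over all 40725 tested loci, 1.81% passed (limma on log2(FPKM + 1), adjusted p under 0.05), 1.24% higher and 0.567% lower in OE-NtispH, so a count of 0 of 5 is near that background. At an unadjusted p under 0.05 the count was 1 of the 5 genes, HMGR2, beside 26.4% of all tested loci. The 5 genes had a median log2 change of 0.08, with 3 above 0 and 2 below, beside a median of 0.13 over all tested loci.

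HMGR2 stood at 7.70, 7.10 and 11.4 FPKM in OE-NtispH replicates 1 to 3, against 108.4, 36.4 and 18.4 FPKM in WT replicates 1 to 3. The groups did not overlap, which held for 8.59% of all tested loci in this direction and for 32.5% in either. The libraries labelled OE-NtispH lay close together, within 1.61-fold, while those labelled WT spanned 5.88-fold. The means were 8.73 ± 2.33 FPKM in OE-NtispH and 54.4 ± 47.6 FPKM in WT (SD, n = 3 each), 6.23-fold apart. The log2 change was -2.17 ± 0.67 (SE; limma, adjusted p = 0.126), with a 95% interval, not adjusted for the number of loci, of -3.86 to -0.47. WT replicate 1 alone supplied much of the distance between the means. Without it the means were 8.73 FPKM in OE-NtispH and 27.4 FPKM in WT, 3.14-fold apart, and the log2 change was -1.50 (limma, adjusted p = 0.0929).

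In these bulk leaf samples, fewer cells of a type and less RNA per cell cannot be told apart. The mesophyll markers were also lower in the libraries labelled OE-NtispH, by their sums above, and their part in the HMGR2 difference was not tested.

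HMGR1, another gene for the same enzyme, was lower than HMGR2 in every library and followed another order. It stood at 4.24, 3.73 and 0.850 FPKM in OE-NtispH replicates 1 to 3, against 1.44, 1.60 and 2.80 FPKM in WT. Here the spread lay in the OE-NtispH libraries, which held both the highest pair and the lowest value, so the groups overlapped. The means of 2.94 ± 1.83 and 1.95 ± 0.74 FPKM in OE-NtispH and WT (SD, n = 3 each) lay closer together than the replicates of either group (log2 change 0.31 ± 0.41 SE; limma, adjusted p = 0.664). The interval of the change reached from -0.66 to 1.28. Without OE-NtispH replicate 3 the mean in OE-NtispH was 3.98 FPKM, against 1.95 FPKM in WT, with a log2 change of 0.78 (limma, adjusted p = 0.0691). Without OE-NtispH replicate 1 the change was 0.033 and without OE-NtispH replicate 2 it was 0.11 (limma, adjusted p of 0.974 and 0.906), so its size rests on which OE-NtispH libraries are kept.

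FPKM is scaled by transcript length, so the levels of both HMGR genes can be set side by side. HMGR2 made up 64.5%, 65.6% and 93.1% of their summed FPKM in OE-NtispH replicates 1 to 3, against 98.7%, 95.8% and 86.8% in WT. OE-NtispH replicate 3, with the least HMGR1, had a share inside the WT range, so the groups overlapped (exact permutation test, two-sided, p = 0.2, where 0.1 is the smallest p that 3 against 3 libraries allow). The summed FPKM of the pair was 11.9, 10.8 and 12.3 in OE-NtispH replicates 1 to 3, against 109.9, 38.0 and 21.2 in WT. The OE-NtispH libraries thus differed in how the sum divided between the copies more than in the sum itself. Tobacco is an allotetraploid, fragments from near-identical copies can be assigned to either, and the counting rule is not given in the sources used here, so the split between copies is uncertain to that extent. Any HMGR locus without a name was not counted in these shares and sums.

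AACT2, at the entry of the pathway, stood at 12.2, 8.85 and 11.6 FPKM in OE-NtispH replicates 1 to 3, against 10.1, 8.21 and 7.34 FPKM in WT. OE-NtispH replicate 2 lay inside the WT range, so the groups overlapped. The means were 10.9 ± 1.80 FPKM in OE-NtispH and 8.56 ± 1.43 FPKM in WT (SD, n = 3 each), for which the log2 change was 0.31 ± 0.16 (SE; limma, adjusted p = 0.249).

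The sterol demethylase genes were the steadiest of the 5. CYP51 stood at 21.8, 23.5 and 20.1 FPKM in OE-NtispH replicates 1 to 3, against 18.3, 21.1 and 22.5 FPKM in WT. NtCYP51-2 was the most abundant of the 5 genes by mean, at 52.8, 54.7 and 61.3 FPKM in OE-NtispH, against 58.8, 60.0 and 57.3 FPKM in WT. For both genes the groups overlapped. All 6 values of CYP51 fell within 1.29-fold and all 6 of NtCYP51-2 within 1.16-fold, beside 15.3-fold for HMGR2 and 4.99-fold for HMGR1. The log2 change of CYP51 was 0.08 ± 0.12 (SE; limma, adjusted p = 0.708) with an interval of -0.20 to 0.36, and that of NtCYP51-2 was -0.06 ± 0.11 (SE; limma, adjusted p = 0.751) with an interval of -0.32 to 0.20. On the FPKM + 1 scale these intervals run from 0.870 to 1.28-fold and from 0.800 to 1.15-fold. The sign for CYP51 turned with median-of-ratios scaling (-0.07) and quantile normalization (-0.07), so no direction can be given for it.

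The CYP51 pair kept a nearly constant sum and split. Their summed FPKM was 74.6, 78.3 and 81.4 in OE-NtispH replicates 1 to 3, against 77.1, 81.1 and 79.8 in WT. NtCYP51-2 held 70.8%, 69.9% and 75.3% of it in OE-NtispH, against 76.3%, 74.0% and 71.8% in WT (exact permutation test, two-sided, p = 0.4). Any CYP51 locus without a name was not counted. By mean FPKM over each group, the order in OE-NtispH was NtCYP51-2, CYP51, AACT2, HMGR2 and HMGR1. AACT2 and HMGR2 overlapped in that order, and the other neighbours did not. In WT it was NtCYP51-2, HMGR2, CYP51, AACT2 and HMGR1, where HMGR2 overlapped both NtCYP51-2 and CYP51 because its libraries spread so far, and CYP51, AACT2 and HMGR1 did not overlap.

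**Figure D1:**
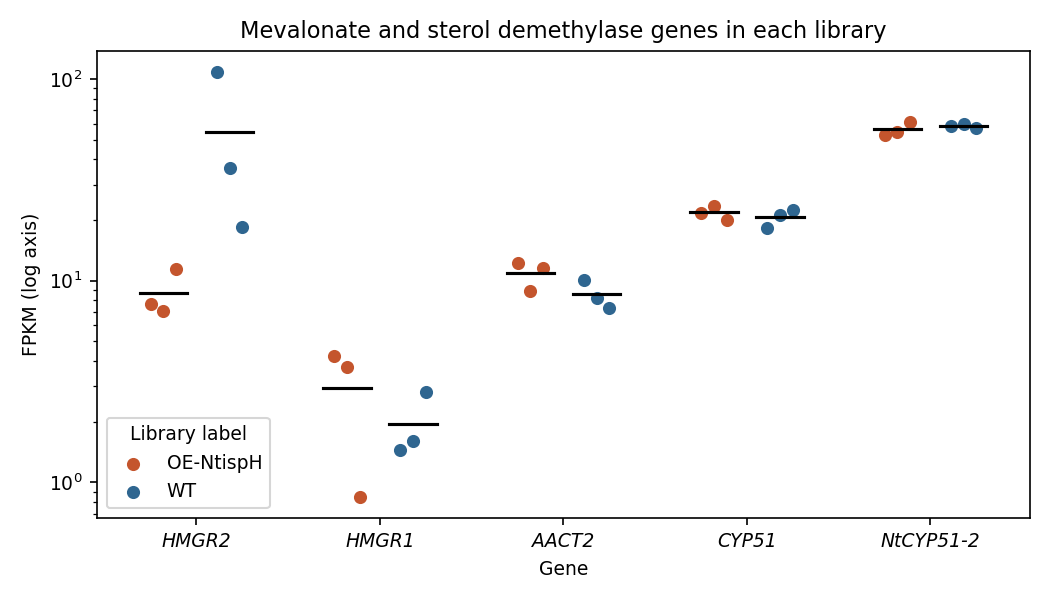
FPKM (log axis) of the 5 genes in each library, OE-NtispH left and WT right for each gene, replicates 1 to 3 from left to right, with bars at the group means. HMGR2 spreads from 18.4 to 108.4 FPKM in WT, while both CYP51 genes lie within 1.29-fold over all 6 libraries.

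The spread within groups can be set beside that of all loci, as a description only. The genes were chosen with earlier results of these data known, so their places in that ranking are no separate support for the contrast. Pooled over both groups, the SD of log2(FPKM + 1) between libraries of one label was 0.92 for HMGR2 and 0.63 for HMGR1, above that of 98.7% and 96.6% of all tested loci. It was 0.22 for AACT2, 0.13 for CYP51 and 0.08 for NtCYP51-2, above that of 57.8%, 21.1% and 5.43%. Among loci whose mean FPKM was within 2-fold of the gene's own, the shares were 97.7% for HMGR2, 96.5% for HMGR1, 68.0% for AACT2, 31.6% for CYP51 and 10.3% for NtCYP51-2. The pooled values hide unequal groups, since the SD of HMGR2 was 0.33 in OE-NtispH and 1.26 in WT, and that of HMGR1 was 0.83 in OE-NtispH and 0.34 in WT. In each HMGR gene 1 library carried much of the spread. Without WT replicate 1 the pooled SD of HMGR2 was 0.47, above that of 91.6% of loci of like level, and without OE-NtispH replicate 3 that of HMGR1 was 0.29, above that of 74.9%. For NtCYP51-2 the pooled SD was 0.03 without OE-NtispH replicate 3, above that of 1.89%. Over all 6 omissions in turn, the pooled SD ranged from 0.47 to 1.06 for HMGR2, from 0.29 to 0.72 for HMGR1, from 0.10 to 0.15 for CYP51 and from 0.03 to 0.09 for NtCYP51-2, so each HMGR gene exceeded both CYP51 genes throughout.

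**Figure D2:**
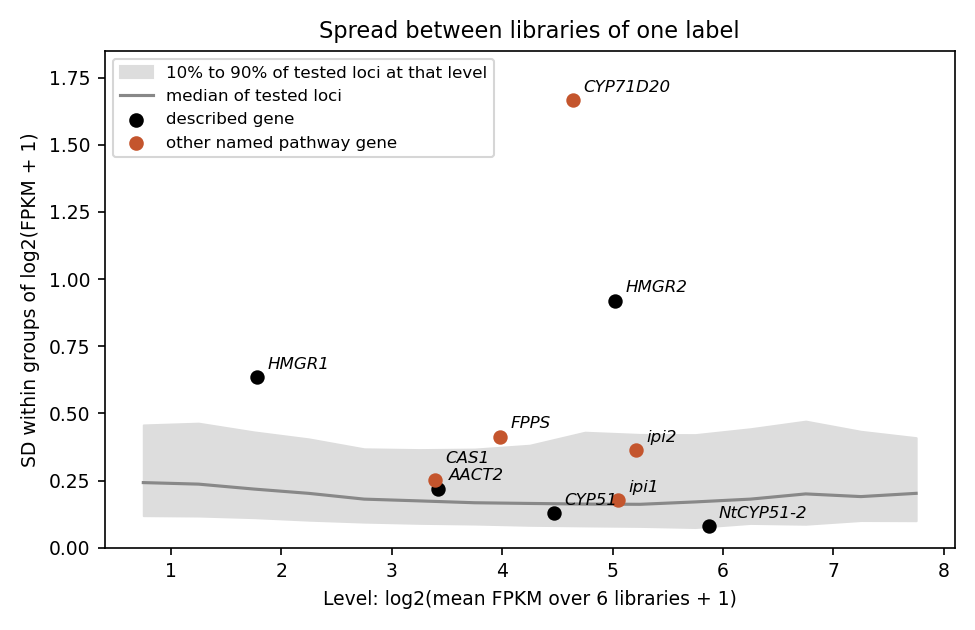
SD of log2(FPKM + 1) within groups, pooled over both, against the level of each gene, with the grey band holding the middle of all tested loci at that level (10% to 90%). HMGR2 (0.92) and HMGR1 (0.63) lie above the band with all 6 libraries, and CYP51 (0.13) and NtCYP51-2 (0.08) lie in its lower part or at its edge. Wide spread is not particular to HMGR, since CYP71D20 (1.67) and FPPS (0.41) also lie above the band. The remaining named pathway genes, ipi2 (0.36), CAS1 (0.25) and ipi1 (0.18), lie within it.

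A plain ratio of HMGR to CYP51 inside each library does not depend on how the libraries were scaled. HMGR2 was 0.103, 0.0907 and 0.140 times the summed FPKM of both CYP51 genes in OE-NtispH replicates 1 to 3, against 1.41, 0.448 and 0.231 times in WT. In WT replicate 1 the HMGR2 transcript outweighed both demethylase transcripts together, and in every OE-NtispH library it was a small part of them. On the log2(FPKM + 1) scale, where scaling cancels only in part, HMGR2 minus the mean of both CYP51 genes was -1.92 ± 0.33 in OE-NtispH and 0.26 ± 1.32 in WT (SD, n = 3 each), a difference of -2.18 (exact permutation test, two-sided, p = 0.1, the smallest that 3 against 3 allow). The same measure for HMGR1 was -3.33 ± 0.84 in OE-NtispH and -3.63 ± 0.30 in WT (SD, n = 3 each), a difference of 0.30 (exact permutation test, two-sided, p = 0.6). HMGR2 was therefore lower relative to the sterol genes in all OE-NtispH libraries, and the test cannot go below its threshold at this number of libraries. Since the CYP51 sum hardly varied, the ratio mostly restates the values of HMGR2 itself and is no separate support. Any measure whose groups do not overlap gets this p of 0.1, and by FPKM the groups did not overlap for 32.5% of tested loci.

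The other named genes of the route are few, since 1335 of the 68476 loci carry a name. The lists for the mevalonate pathway, for the isomerase and farnesyl diphosphate synthase, for sterol synthesis and for capsidiol synthesis held 3, 3, 3 and 1 named genes, of which 5 are those above, and the list for brassinosteroid synthesis held none. None of the 10 passed the test (limma), with 5 above 0 and 5 below, and 3 had an unadjusted p under 0.05: HMGR2, ipi2 and FPPS. That share of 30.0% is near the 26.4% of all tested loci, as 0 of 10 is near the 1.81% that passed. HMG-CoA synthase, the mevalonate kinases and mevalonate diphosphate decarboxylase were not matched by name and were not analysed here.

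Isopentenyl diphosphate isomerase interconverts the precursors that both routes make, and in tobacco ipi1 is known to encode a chloroplast form and ipi2 a cytosolic form. The gene ipi2 (LOC107808635) stood at 24.0, 22.4 and 22.4 FPKM in OE-NtispH replicates 1 to 3, against 69.3, 44.3 and 34.0 FPKM in WT. Like HMGR2 it was lower in every OE-NtispH library and it ranked the WT libraries as HMGR2 did, with replicate 1 highest and replicate 3 lowest (log2 change -1.01 ± 0.23 SE; limma, adjusted p = 0.0624). The gene ipi1 (LOC107828834) stood at 42.1, 30.1 and 32.2 FPKM in OE-NtispH, against 29.2, 30.0 and 28.7 FPKM in WT. These groups did not overlap either, as for 23.9% of tested loci in the direction of OE-NtispH, but the gap was small (log2 change 0.23 ± 0.14 SE; limma, adjusted p = 0.337). It was smaller still without OE-NtispH replicate 1 (0.084) and with median-of-ratios scaling (0.072), in a range of 0.072 to 0.32 over all alternatives. The ratio of ipi2 to ipi1 was 0.569, 0.746 and 0.695 in OE-NtispH replicates 1 to 3, against 2.37, 1.48 and 1.18 in WT. Of these named loci the more abundant was therefore ipi1 in every OE-NtispH library and ipi2 in every WT library. Isomerase loci without a name were not counted, and the doubt about assigning fragments between copies holds here too.

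FPPS (LOC107795792), whose product makes the farnesyl diphosphate used for sterols and sesquiterpenes, stood at 9.17, 9.47 and 7.46 FPKM in OE-NtispH, against 29.2, 12.9 and 20.3 FPKM in WT. It too was lower in every OE-NtispH library and highest in WT replicate 1, although WT replicates 2 and 3 stood in the opposite order to HMGR2 (log2 change -1.11 ± 0.26 SE; limma, adjusted p = 0.0677). CAS1 (LOC107762593), a symbol used for cycloartenol synthase, which opens plant sterol synthesis, stood at 11.7, 12.5 and 7.66 FPKM in OE-NtispH, against 8.87, 7.72 and 8.38 FPKM in WT. Its groups overlapped (log2 change 0.29 ± 0.18 SE; limma, adjusted p = 0.318), as did those of the demethylase genes downstream of it. Without OE-NtispH replicate 3 the log2 change of CAS1 was 0.49 (limma, adjusted p = 0.0554), and over all alternatives it ranged from 0.15 to 0.49 (limma, adjusted p of 0.0554 to 0.679). CYP71D20 (LOC107759261), for a hydroxylase in the synthesis of capsidiol, a tobacco sesquiterpene defence compound, stood at 15.8, 3.68 and 6.16 FPKM in OE-NtispH, against 3.67, 21.6 and 92.5 FPKM in WT. CYP71D20 was lowest, at nearly equal levels, in WT replicate 1, where HMGR2 was highest, and in OE-NtispH replicate 2, where HMGR2 was lowest. By far its highest value stood in WT replicate 3 (log2 change -1.38 ± 1.23 SE; limma, adjusted p = 0.52). Over the 6 libraries its log2(FPKM + 1) had a Pearson r of -0.078 with that of HMGR2. Without WT replicates 1 and 2, the libraries farthest from the median of HMGR2, r was 0.804, so it depends on the libraries kept. The log2 change was -0.32 without WT replicate 3 and -2.48 without WT replicate 1, the range over all alternatives (limma, adjusted p of 0.153 to 0.871).

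**Figure D3:**
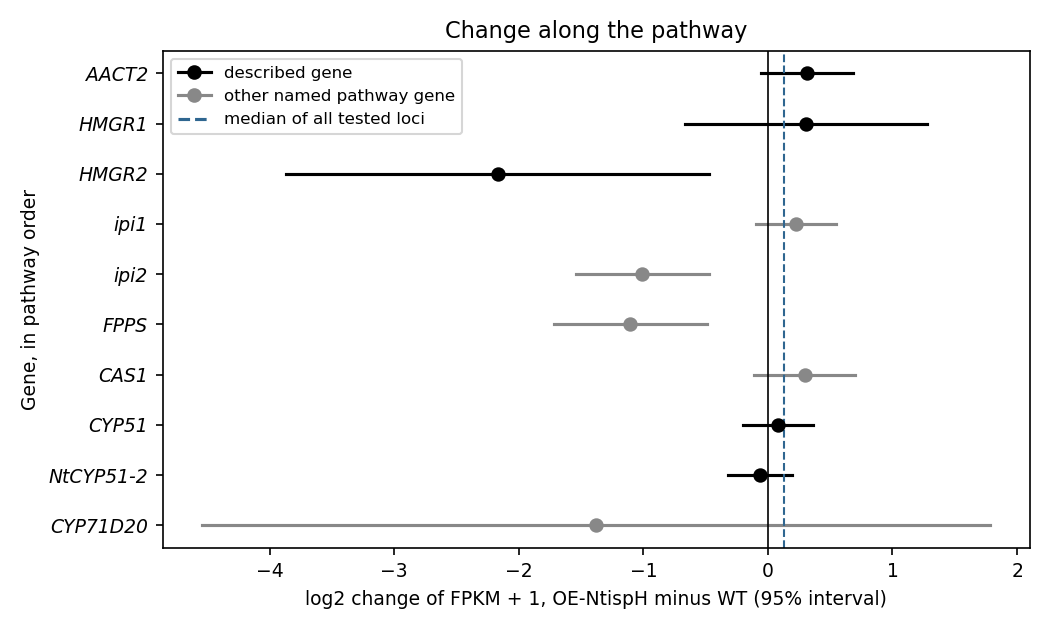
Log2 change (OE-NtispH minus WT, on the FPKM + 1 scale) with its 95% interval for the 10 named genes in pathway order, the 5 described genes in black. HMGR2 (-2.17), ipi2 (-1.01) and FPPS (-1.11) have intervals below 0, while those of all the other genes include 0 and the median of all tested loci (0.13, dashed). The intervals are not adjusted for the number of loci, and none of the 10 genes passed the test (limma, adjusted p under 0.05).

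Among the 906 other named genes that averaged 1 FPKM or more, ranked by Pearson r of log2(FPKM + 1) over the 6 libraries, the pattern of HMGR2 was most like that of ipi2 (r = 0.983). Next came HrBP1 (LOC107762961, r = 0.950), the tubulin gene tubA3 (LOC107827984, r = 0.878), cas (LOC107800572, r = 0.878) and MPK2 (LOC107777785, r = 0.876). By rank the order differed, since Spearman's rho was 0.829 for ipi2, the lowest of the 5, and 0.886 to 0.943 for the other 4. Without WT replicates 1 and 2, the libraries farthest from the median of HMGR2, r was 0.846 for ipi2 and 0.614 to 0.898 for the other 4. HMGR2 separates the groups as labelled, so a gene that is also lower in every OE-NtispH library tends to rank high here, and these figures are descriptions with no test. The range of HrBP1 was narrow, 65.5, 68.2 and 69.1 FPKM in OE-NtispH, against 80.1, 78.2 and 72.8 FPKM in WT, so the likeness is one of order and not of size.

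The genes most like HMGR1 were others. DAHPS-1 (LOC107775732), for the entry enzyme of the shikimate pathway, had r = 0.995, the gene listed as NAC (LOC107784516) r = 0.991, PGIP2 (LOC107799852), for a polygalacturonase inhibitor, r = 0.985, ADC1 (LOC107796783), for arginine decarboxylase, r = 0.978, and PR-P (LOC107771200), an acidic chitinase gene, r = 0.968. Without OE-NtispH replicates 1 and 3, the farthest from the median of HMGR1, r was 0.959 to 0.993 for these 5. They were picked from 906 genes by r over the same 6 libraries, so the choice favours a high r with some left out. These figures too are descriptions with no test. ADC1 shows the shared pattern, at 50.6, 44.2 and 4.31 FPKM in OE-NtispH replicates 1 to 3, against 7.77, 13.6 and 38.9 FPKM in WT. The high libraries were OE-NtispH replicates 1 and 2 and WT replicate 3, a division that crosses the labels. HMGR1 and HMGR2 themselves had r = -0.533, and HMGR1 and NtCYP51-2 had r = -0.960 although all 6 values of NtCYP51-2 lay within 1.16-fold. Without OE-NtispH replicates 1 and 3, r was -0.944 for HMGR1 with HMGR2 and -0.934 for HMGR1 with NtCYP51-2. Without WT replicates 1 and 2, r of HMGR1 with HMGR2 was -0.393, so its size depends on the libraries kept.

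**Figure D4:**
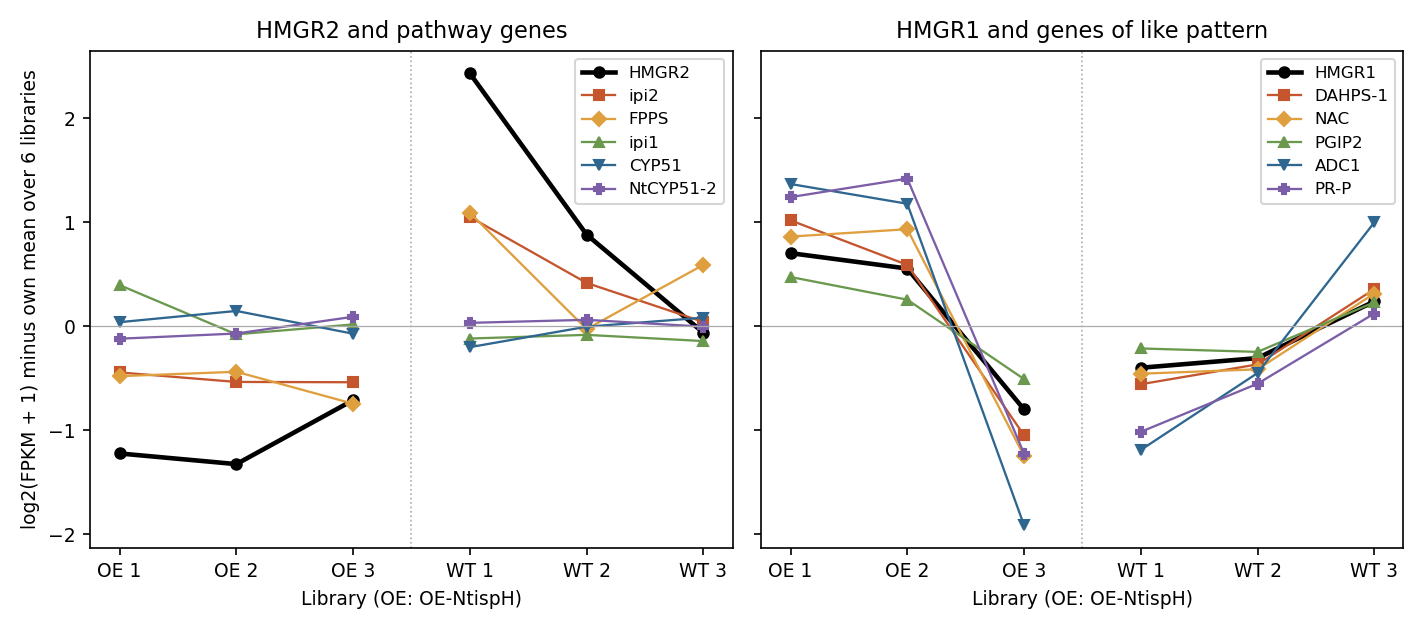
Log2(FPKM + 1) minus each gene's own mean, by library, OE-NtispH left and WT right, for HMGR2 with pathway genes (left) and HMGR1 with the 5 genes of most similar pattern (right). HMGR2 and ipi2 are low in all 3 OE-NtispH libraries and highest in WT replicate 1, while HMGR1 is high in OE-NtispH replicates 1 and 2 and lowest in OE-NtispH replicate 3.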

How the data were processed

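The authors deposited 1 table of FPKM values, scaled by transcript length and by mapped fragments, for 6 libraries; fastp, Bowtie2, HISAT2, StringTie and RSEM are named, per the submitters' processing notes, without versions or roles. Genome build and annotation: not given in the sources used here. Groups and replicate numbers came from sample titles. Of 61780 NCBI gene numbers, 49268 matched the RefSeq gene table of ASM71507v2, used for names only.

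Loci averaging 0.5 FPKM or more over the 6 libraries were fitted on log2(FPKM + 1) with limma 3.58.1 (R 4.3.3; trend, robust, two-sided, Benjamini-Hochberg at 0.05 over all tested loci). The log2(FPKM + 1) scale understates changes of low genes. Ratios and shares used exact permutation tests (scipy 1.17.1; pandas 2.3.3, numpy 2.4.6, matplotlib 3.10.9, Python 3.11.15). The fit was tested on simulated data.

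Named genes were the 5 chosen loci, the named genes of the pathway lists, and the 5 named genes most like each HMGR gene. HrBP1 and ADC1 were picked from these for their values after those were seen. The genes and lists were chosen with earlier results of these data known. Alternatives covered the pseudocount, filter, scaling, fit options, the replicate number and leaving out each library.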

Additional observations from a re-analysis of the deposited data

How the results depend on the processing

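Across 15 alternatives, none of the 5 genes passed the threshold, nor did ipi1, ipi2, FPPS, CAS1 and CYP71D20 (alternatives for the last 5 were added after seeing the data). None had passed in the main fit either, and in some alternatives below no locus at all passed, so this is weak evidence of stability. The log2 change ranged from -2.74 to -1.50 for HMGR2 (limma, adjusted p of 0.0764 to 0.311), from 0.03 to 0.78 for HMGR1, from 0.16 to 0.45 for AACT2 and from -0.22 to -0.02 for NtCYP51-2. That of CYP51 turned to -0.0727 with median-of-ratios scaling, -0.0723 with quantile normalization and -0.000864 without WT replicate 1; its leave-one-out values ran from -0.000864 to 0.14. The difference in log2 ratio to the CYP51 genes ranged from -2.77 to -1.46 for HMGR2 and from 0.0034 to 0.78 for HMGR1; with no pseudocount, added after seeing the data, it was -2.30 and 0.34 (exact permutation p of 0.1 and 0.8). The number of loci past the threshold, 737, was 38 with no filter, 1375 at a mean of at least 2 FPKM, 329 with median-of-ratios scaling, 61 without the intensity trend and 456 without the robust option. Leaving out 1 library gave 0 to 3109; it was 0 without OE-NtispH replicate 1 and 0 without WT replicate 1 (limma; 7216 and 10208 loci at unadjusted p under 0.05). Same-numbered libraries did not deviate together (correlations of -0.13, 0.045 and -0.16), so the numbers were not taken as pairs; with the replicate block 68 loci passed, and HMGR2 had an adjusted p of 0.188. The median log2 change of all tested loci was 0.13, and 0.01 and 0.02 with median-of-ratios scaling and quantile normalization. Without read counts no counting interval can be given for any of these values.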
